A study of Mus musculus with 78 samples.

Results

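MED23 sites lost after TRIM28 degradation were defined on 4 MED23 ChIP-seq libraries of mouse embryonic stem cells (mESCs), 2 from vehicle-treated control cells and 2 from cells exposed to dTAG-13 for 24 h. A lost site was a peak among the 5000 highest of DMSO replicate 1 that overlapped one of the 5000 highest of DMSO replicate 2 by at least 1 bp and overlapped no peak at all in either dTAG-13 library. Of 4334 sites shared by the DMSO replicates, 226 (5.21%) were lost, 3941 (90.9%) had a peak in both dTAG-13 libraries and are called kept sites, and 167 had a peak in 1 dTAG-13 library. The peak heights that chose the sites are therefore given below as a description.

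Treated and control cells alike were V6.5 mESCs with FKBP-tagged TRIM28 alleles, in which 500 nM dTAG-13 triggers degradation of the protein and DMSO is the vehicle control. The edited line came from picked colonies sorted for a fluorescent reporter, so its groups share 1 genetic background, and cells were grown in serum and LIF and depleted of feeder fibroblasts before use. H3K27ac and H3K9me3 ChIP-seq comprised 3 control and 3 dTAG-13 libraries per mark, and RNAPII ChIP-seq 2 of each, all at 24 h. TT-SLAM-seq, which labels newly made RNA with 4-thiouridine, had 3 DMSO libraries and 3 for each of 2, 6 and 24 h of dTAG-13. RNA-seq had 3 each at these times and at 96 h, 3 of neural progenitor cells (NPCs) in DMSO, and 9 of a line with short hairpins against ERV repeats (shERV), 3 each in DMSO, in dTAG-13 and in dTAG-13 with doxycycline. The labels of all 3 shERV groups also give doxycycline before the treatment. The replicates are numbered, but nothing in the labels says that they came from separate cultures. The paper describes the TT-SLAM-seq, time-course RNA-seq and shERV RNA-seq data as from 3 biological replicates. The p-values measure the spread between these libraries, which for the other data may be technical.

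MED23 is a subunit of the tail module of Mediator, the coactivator complex that relays signals from transcription factors at enhancers and promoters to RNA polymerase II (RNAPII). In mESCs Mediator is most enriched at clusters of active enhancers, called super-enhancers (SEs), near genes that maintain pluripotency. TRIM28 is a corepressor recruited by KRAB zinc finger proteins, mainly to endogenous retroviruses (ERVs), where it promotes deposition of the repressive mark H3K9me3. H3K27ac marks active enhancers and promoters.

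The identity of the cells was read from marker genes. The 5 mESC markers Pou5f1, Sox2, Nanog, Esrrb and Zfp42 summed to between 1701 and 1768 TPM in the DMSO RNA-seq libraries, against 20.3 to 21.1 TPM for 8 feeder fibroblast markers and 26.9 to 32.7 TPM for 8 endoderm markers. At 24 h of dTAG-13 the sums ranged from 957 to 1046, 26.2 to 28.3 and 34.6 to 35.8 TPM, and in these bulk samples fewer cells of a type and less RNA per cell cannot be told apart. The mRNA of Trim28 does not measure degradation of the protein, and it was 622, 622 and 626 TPM in DMSO and 369, 365 and 382 TPM at 24 h. Med23 transcripts stood at 24.9, 24.9 and 25.3 TPM without and 29.9, 30.2 and 29.1 TPM with 24 h of dTAG-13 (0.24 ± 0.04 on the log2 scale, SE, adjusted p = 0.00019, limma). The value turned to -0.05 (adjusted p = 0.33) after each library was centred on its median.

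The sequences of 5 lost sites are shown, because they include the pair with the highest mean MED23 enrichment in DMSO and those nearest to the pluripotency genes Esrrb, Prdm14, Klf4 and Tbx3. Each line gives 300 bases centred on the MED23 summit of DMSO replicate 1 in GRCm38 (mm10), plus strand, 5′ to 3′, and is named by the nearest active gene. Capitals mark words searched for on both strands: ATGCAAAT (octamer), CATTGTT (SOX), TCAAGGTCA (ESRRB), GGGTGTGG or GGGCGTGG (KLF) and CCAATCA (NFY).

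Aldh4a1 site, chr4:139836108-139836407: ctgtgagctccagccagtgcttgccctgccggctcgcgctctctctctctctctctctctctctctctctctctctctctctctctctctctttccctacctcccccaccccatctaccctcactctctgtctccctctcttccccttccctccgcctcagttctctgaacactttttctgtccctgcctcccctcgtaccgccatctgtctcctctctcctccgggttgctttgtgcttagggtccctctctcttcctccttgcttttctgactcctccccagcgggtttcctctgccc
Esrrb site, chr12:86504392-86504691: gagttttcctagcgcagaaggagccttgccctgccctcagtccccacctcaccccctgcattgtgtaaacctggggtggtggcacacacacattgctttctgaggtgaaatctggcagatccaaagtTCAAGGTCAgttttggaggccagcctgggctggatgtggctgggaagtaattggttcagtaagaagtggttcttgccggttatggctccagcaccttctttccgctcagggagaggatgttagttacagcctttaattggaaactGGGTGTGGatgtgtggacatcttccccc
Prdm14 site, chr1:13084911-13085210: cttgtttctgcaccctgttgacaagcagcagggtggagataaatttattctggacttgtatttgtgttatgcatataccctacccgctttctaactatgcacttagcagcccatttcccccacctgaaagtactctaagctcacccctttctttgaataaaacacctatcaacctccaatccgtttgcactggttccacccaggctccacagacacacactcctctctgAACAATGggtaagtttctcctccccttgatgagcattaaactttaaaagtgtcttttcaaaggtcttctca
Klf4 site, chr4:55464280-55464579: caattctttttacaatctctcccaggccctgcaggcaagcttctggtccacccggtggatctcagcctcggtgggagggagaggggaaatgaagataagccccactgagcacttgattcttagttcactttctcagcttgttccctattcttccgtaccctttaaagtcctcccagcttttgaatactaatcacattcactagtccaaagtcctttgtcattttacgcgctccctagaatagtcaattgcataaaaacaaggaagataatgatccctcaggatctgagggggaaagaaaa
Tbx3 site, chr5:119772375-119772674: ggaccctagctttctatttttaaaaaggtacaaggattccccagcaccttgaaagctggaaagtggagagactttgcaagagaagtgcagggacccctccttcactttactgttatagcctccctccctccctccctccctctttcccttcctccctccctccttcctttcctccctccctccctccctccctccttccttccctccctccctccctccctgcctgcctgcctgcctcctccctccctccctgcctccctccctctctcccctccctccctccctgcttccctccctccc

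The Esrrb window held an ESRRB word at base 128 and a KLF word at base 273, and the Prdm14 window held a SOX word on the minus strand at base 230. The other 3 windows held none of these words, and those nearest to Aldh4a1 and Tbx3 contained long runs of alternating or tandem pyrimidines, visible as repeated ctct and ccct. The first site lay in intergenic DNA at chr4:139835190-139837262, 2730 bp from the start of Pax7, a paired-box gene that was not among the active genes. Its nearest active gene, Aldh4a1, a mitochondrial enzyme gene, began 213392 bp away. The Esrrb site lay in an intron of Esrrb, 143425 bp from its start and within a listed SE. The Prdm14 and Klf4 sites were also within listed SEs, the first in intergenic DNA 42102 bp from the start of Prdm14 and the second in an annotated intron 68036 bp from that of Klf4. The Tbx3 site was intergenic and 101856 bp from Tbx3.

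Lost sites came from the weaker end of the shared sites. Their fold enrichment, as the peak caller reports it against its local background, had a median of 17.5 (range 15.0 to 46.2) in DMSO replicate 1 and 17.1 (14.6 to 92.3) in replicate 2. Kept sites had medians of 23.7 and 23.1. Of the shared sites ranked 1 to 1000 in DMSO replicate 1, 3 (0.3%) were lost, and the share was 1.31%, 4.47%, 9.59% and 15.8% in the following ranges of 1000 ranks. The lowest lost site stood at rank 4976 with a fold enrichment of 14.98, and the next site that met the other conditions stood just outside the limit at rank 5008 with 14.95. The width of lost sites had a median of 1103 bp, against 1489 bp for kept sites.

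The dTAG-13 MED23 libraries were weaker throughout, and this applies to every count of lost sites. They held 15335 and 14551 peaks, against 63045 and 58925 in DMSO, and their highest peaks reached 104 and 104, against 320 and 295. Of the 3941 kept sites, 3867 were also lower in dTAG-13, with a median ratio of dTAG-13 to DMSO enrichment of 0.320. No spike-in was stated for MED23 and read depth was not given in the sources used here, so less MED23 at these sites and a lower enrichment of the whole library cannot be told apart. For this reason 1137 kept sites whose mean DMSO enrichment lay between the lowest value and the upper quartile of the lost sites were used as a second comparison group. They had a median DMSO enrichment of 17.5, against 17.3 for lost sites. By definition they have a peak in both dTAG-13 libraries, with medians of 5.79 and 5.97. These values were part of the choice of sites and cannot tell the readings above apart. The same rule turned round, from dTAG-13 to DMSO, found 94 of 4339 shared dTAG-13 sites (2.17%) without a DMSO peak.

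**Figure D1:**
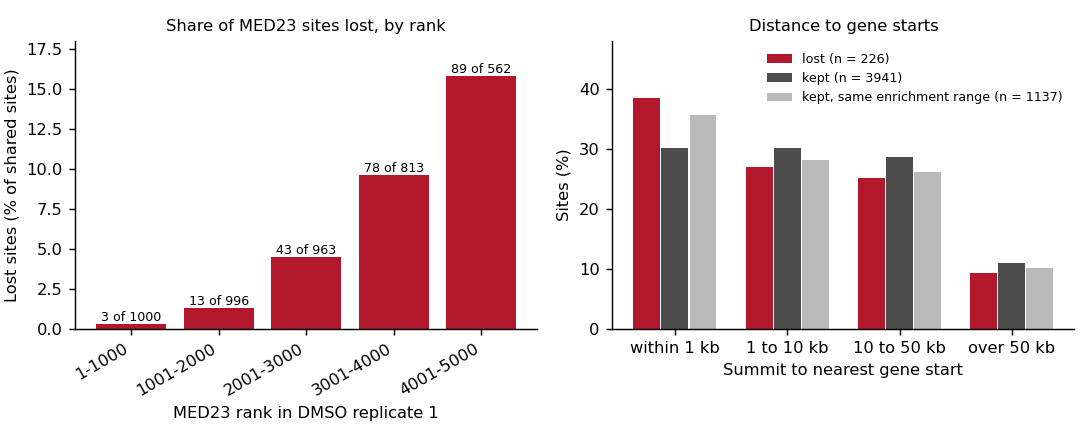
Left, the share of shared MED23 sites that were lost (y axis, %) by rank in DMSO replicate 1 (x axis), with the numbers above the bars; it runs from 0.3% at ranks 1 to 1000 to 15.8% at the weakest ranks. Right, the share of lost, kept and enrichment-matched kept sites (y axis, %) by distance from the MED23 summit to the nearest gene start (x axis); 38.5% of lost sites lie within 1 kb of a start.

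The pair of sites with the highest mean enrichment was uneven between DMSO replicates. The Aldh4a1 site had 16.6 in replicate 1 and 92.3 in replicate 2, and the Esrrb site had 20.0 and 75.0. These and a site nearest to Gm26916 (15.1 and 33.9) were the 3 lost sites of 226 (1.33%) that differed more than 2-fold between the DMSO replicates, and 0.152% of kept sites did so. The next strongest lost site, at chr14:60957511-60958529 and 88548 bp from Tnfrsf19, a TNF receptor family gene, had 46.2 and 36.8. The other sites among the top 10 had values of 27.2 to 35.4 in both replicates and were nearest to Mdm1, Efr3b, Gm5837, Gpx4-ps2, Tmem181a, Clic4 and St5.

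Many lost sites were at gene starts. The summit of 87 lost sites (38.5%) lay within 1 kb of an annotated gene start, of 61 (27%) at 1 to 10 kb, of 57 (25.2%) at 10 to 50 kb and of 21 (9.29%) farther away. The corresponding shares of kept sites were 30.2%, 30.1%, 28.7% and 10.9%, and 35.6% of the enrichment-matched kept sites were within 1 kb. The median distance was 3480.5 bp for lost, 5712 bp for kept and 4456 bp for matched kept sites. Of the lost sites away from starts, 8 had their summit in an exon, 57 in an intron and 74 between genes. Sites share libraries and neighbours, so these are descriptions with no test.

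Few lost sites were close to one another. Within 50 kb of another lost site lay 8 of the 226. A kept site was within 50 kb of 77 lost sites and within 10 kb of 25, and 149 (65.9%) had none within 50 kb. Kept sites are far more numerous, so these counts cannot be set against each other. Chromosome 14 had the highest share, 18 of 183 shared sites (9.84%), and chromosome 3 the lowest among the autosomes, 3 of 254 (1.18%). Listed SEs held 17 lost sites (7.52%), against 5.33% of kept and 2.55% of matched kept sites. These 17 sites fell in 17 different SEs, 9 of which also held a kept site. The nearest active genes of the SE sites were Esrrb, Prdm14, Klf4, Dusp27, Tlnrd1, Nphs1os, Cbfa2t2, Gm3375, Slc2a3, Rara, Trip12, Sik1, Abhd2, Tmem131, Nfkbia, Cobl and Ccnd3.

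Full-length MMERVK and MMETn elements, ERV families that TRIM28 represses, overlapped 0 lost sites, 16 kept sites (0.406%) and 32 kept sites (0.812%) respectively. Within 50 kb of such an element lay 3 lost sites (1.33%) and 185 kept sites (4.69%). Repeat-masked bases made up on average 20.1% of the 300-base windows of lost sites, 23.9% of kept and 21.2% of matched kept sites.

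In base composition lost sites were richer in GC, with a median of 57.3%, against 51% for kept, 53% for matched kept and 51.3% for all shared sites. Beyond 1 kb from gene starts the medians were 50.7% for lost and 48% for kept sites. The KLF words occurred in 22 lost windows (9.73%), against 7.74% of matched kept and 6.16% of all shared windows. The ESRRB word occurred in 7 (3.10%), against 1.58% and 1.64%, and the octamer in 9 (3.98%), against 5.54% and 5.93%. The SOX word was in 7.52% of lost and 6.65% of all windows, and the NFY word in 7.08% and 5.31%. These matches describe the letters of the windows and were not tested.

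H3K27ac was measured in libraries that the choice of sites did not use. Because the libraries held between 30259 and 117475 peaks, the 30259 highest of each were compared. In DMSO 61.1%, 62.8% and 58.8% of lost sites overlapped one of these H3K27ac peaks, and after 24 h of dTAG-13 36.3%, 46.9% and 23.9% did so. The groups did not overlap. The mean share was 60.9% ± 2.00 in DMSO and 35.7% ± 11.5 in dTAG-13 (SD, n = 3 each), a change of -25.2 percentage points (two-sided exact permutation test p = 0.1, the smallest that 3 against 3 libraries can give). Kept sites were at 83.4%, 83.9% and 82.6% in DMSO and 69.5%, 77.2% and 72.0% in dTAG-13, a change of -10.4 points. Taken within each library, the gap between lost and kept sites was 14.8 points larger in dTAG-13 (exact p = 0.1), and that between lost and matched kept sites 14.1 points larger (exact p = 0.1).

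The dTAG-13 H3K27ac libraries were unequal, and their peaks moved with this result. Replicates 1 and 3 had 30259 and 45662 peaks, with median widths of 334 and 411 bp among those used, against 784 to 899 bp in the other 4 libraries. Replicate 2 had 117348 peaks of 859 bp, a number and width like those of DMSO. In that library alone the lost sites were 30.3 points below the kept sites, while the 3 DMSO gaps were 22.3, 21.1 and 23.8 points. With all deposited peaks the mean share at lost sites went from 79.2% to 47.3%, and dTAG-13 replicate 2 alone had 68.6%. With only the top 15129 peaks of each library, the gap was larger by 8.28 points (exact p = 0.2).

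The change in H3K27ac differed by distance from gene starts. Of the 139 lost sites farther than 1 kb, 52.5%, 57.6% and 52.5% carried H3K27ac in DMSO and 20.1%, 28.1% and 12.9% in dTAG-13, a change of -33.8 points (exact p = 0.1). Kept sites in this class went from a mean of 82.5% to 70.3%, and the gap was 21.7 points larger (exact p = 0.1), with 45.7 points in dTAG-13 replicate 2 against 25.9 to 29.8 points in DMSO. Of the 87 lost sites within 1 kb, 74.7%, 71.3% and 69.0% carried the mark in DMSO and 62.1%, 77.0% and 41.4% in dTAG-13. These groups overlapped (change of -11.5 points, exact p = 0.4), and the gap to kept sites changed by -5.20 points (exact p = 0.6). The difference between both distance classes was not itself tested.

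**Figure D2:**
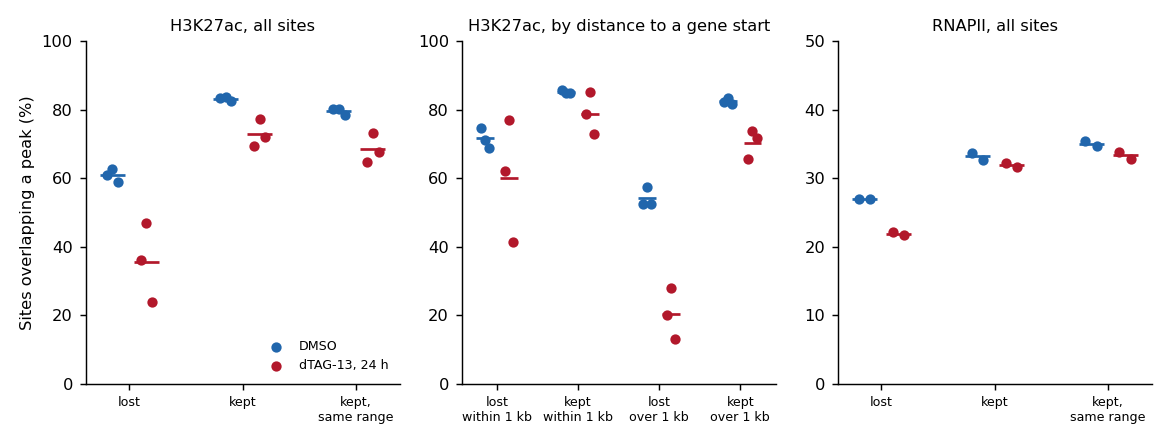
Percentage of MED23 sites overlapping one of the 30259 highest H3K27ac peaks (left and middle) or the 7689 highest RNAPII peaks (right), 1 point per library, lines at group means, DMSO in blue and 24 h dTAG-13 in red; x axes give the site class. Lost sites more than 1 kb from a gene start sit at 52.5 to 57.6% in DMSO and at 12.9 to 28.1% in dTAG-13.

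Site by site, and again among the 30259 highest peaks, 113 lost sites (50%) had H3K27ac in all 3 DMSO libraries, 56 in 1 or 2 of them and 57 (25.2%) in none. Of the 113, 20 had none of these peaks in dTAG-13, 49 had one in 1 or 2 libraries and 44 had one in all 3. The first group was 8.85% of lost sites, against 1.52% of kept and 1.50% of matched kept sites, and 19 of the 20 lay farther than 1 kb from a gene start. It included the Esrrb site, the strongest site near Tnfrsf19 and 3 of the 17 SE sites in all. The group depended on the peaks counted. With all deposited peaks 6 of these 20 sites still had none in dTAG-13, while 13 had one in replicate 2, the Esrrb site had one in 1 library and the Tnfrsf19 site had none. Counted anew on all peaks, 163 lost sites had the mark in all 3 DMSO libraries and 18 of them (7.96% of lost sites) in no dTAG-13 library, against 1.57% of kept and 1.58% of matched kept sites. Of the SE sites 10 had the mark in all 3 DMSO libraries among the highest peaks, and 3 had it in all 3 dTAG-13 libraries. At gene starts the pattern was mixed. The lost sites at the starts of Mysm1 and Larp1 had H3K27ac in all 6 libraries and RNAPII in all 4, while those at the starts of Unc5b, Adcy6 and T had neither mark among the peaks compared. With all peaks the Unc5b site had RNAPII in both DMSO libraries. These genes were chosen after their values were seen. The Tbx3 site had no H3K27ac peak of any height in the 6 libraries. The Prdm14 site had none among the highest peaks and one in 2 DMSO libraries with all peaks, and the Klf4 site had one in 1 DMSO library and in all 3 DMSO libraries respectively. Neither had one in dTAG-13.

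RNAPII, compared over the 7689 highest peaks of each library, was found at somewhat fewer lost sites in dTAG-13. It overlapped 27% and 27% of lost sites in DMSO and 22.1% and 21.7% in dTAG-13, which did not overlap (change of -5.09 points, exact p = 0.33, the smallest that 2 against 2 libraries can give). Kept sites were at 33.7% and 32.7% in DMSO and 32.3% and 31.6% in dTAG-13, and the gap was 3.79 points larger (exact p = 0.33). RNAPII was mainly at lost sites near gene starts, where the mean was 59.8% in DMSO and 50.0% in dTAG-13, and farther away it was 6.47% and 4.32%. None of the 17 lost SE sites had RNAPII among these peaks, and 2 had it in some library with all peaks. With all peaks 154 of the 210 kept SE sites and 16 of the 29 matched kept SE sites had it, a difference that was not tested. The RNAPII peaks used in the dTAG-13 libraries were narrower, with median widths of 304 and 279 bp against 794 and 777 bp, and their part in the result was not tested. The deposited RNAPII peaks numbered 19853 and 19194 in DMSO and 8182 and 7689 in dTAG-13. With all of them the mean share went from 38.9% to 22.1% at lost sites, a change of -16.8 points, and by -16.2 points at kept sites, so the gap was 0.638 points larger (exact p = 0.667). The distance classes differed in sign. Within 1 kb of a gene start the gap was 10.7 points larger. Farther away it was 5.58 points smaller, with changes of -10.8 points at lost and -16.4 points at kept sites.

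H3K9me3, the mark that TRIM28 helps to place, was rare at lost sites. Among the 11474 highest broad peaks of each library, 1, 1 and 1 of 226 lost sites overlapped one in DMSO (0.442% each) and 6, 7 and 6 did so in dTAG-13 (2.65%, 3.10% and 2.65%). The change was 2.36 points (exact p = 0.1). Kept sites went the other way, from 1.93%, 2.99% and 2.46% in DMSO to 0.939%, 1.42% and 1.09% in dTAG-13, and the difference between the changes was 3.67 points (exact p = 0.1). The DNA covered by the peaks used also differed, with 24.8 to 39.7 Mb in the DMSO and 5.32 to 17.7 Mb in the dTAG-13 libraries, and the part of this in the result was not tested. With all deposited peaks the lost sites were at a mean of 5.90% in DMSO and 6.05% in dTAG-13, a change of 0.147 points (exact p = 1).

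Among the 11474 highest peaks 11 lost sites had H3K9me3 in at least 1 dTAG-13 library and 9 of them in no DMSO library. With all deposited peaks the numbers were 24 (10.6%) and 10 (4.42%). The corresponding shares were 7.76% and 1.37% of kept sites and 5.80% and 0.967% of matched kept sites. A pair of neighbouring sites on chromosome 14, at chr14:43271274-43272023 and chr14:43312071-43312870, had one of the highest peaks in all 3 dTAG-13 libraries and in no DMSO library, and with all peaks one in all 6. Their nearest active gene was Cdv3-ps, a processed pseudogene 149142 and 189914 bp away. A site at chr10:47631269-47632090, nearest to Gpx4-ps2, had H3K27ac in all 3 DMSO and no dTAG-13 library, with all peaks too, and H3K9me3 among the highest peaks in no DMSO and 2 dTAG-13 libraries. The site at chr12:3972680-3973770, in an intron of Efr3b, had the same H3K27ac pattern among the highest peaks and H3K9me3 in 1 DMSO and 2 dTAG-13 libraries. With all peaks both sites had H3K9me3 in all 6 libraries.

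**Figure D3:**
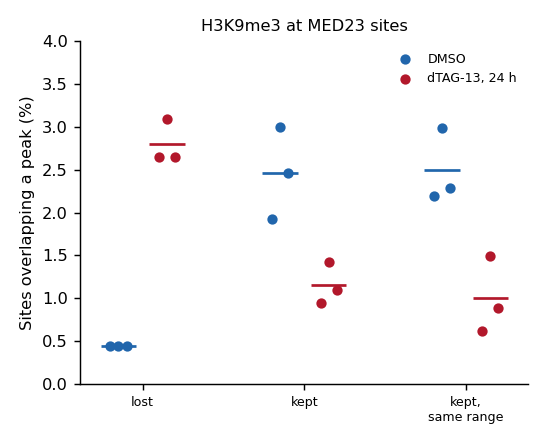
Percentage of MED23 sites (y axis) overlapping one of the 11474 highest H3K9me3 peaks, 1 point per library, lines at group means, for lost, kept and enrichment-matched kept sites (x axis). Lost sites are at 0.442% in DMSO and 2.65 to 3.10% in dTAG-13, and kept sites are higher in DMSO than in dTAG-13.

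Each lost site was assigned the nearest start among 13185 genes with a mean above 1 FPKM in the DMSO RNA-seq. This gave 218 genes, of which 8 were nearest to 2 lost sites and 85 were also nearest to a kept site. The median distance was 15295 bp and 156 sites (69.0%) were within 50 kb. TT-SLAM-seq tested 161 of the 218, those with at least 0.5 FPKM in at least 3 libraries, and 57 did not pass this filter. Calls required more than 2-fold and, from limma on log2(FPKM + 0.5), an adjusted p (Benjamini-Hochberg, 13357 genes) under 0.05. Changes on this scale understate those of low genes. Of the 161 genes 152 had at least 20 reads in every DMSO and 24 h library. For 11 of the 161 fewer than 3 libraries outside the 24 h group reached 0.5 FPKM, and for 9 of these none did, Aldh4a1 and Frat2 among them, so the filter let them in through the group where they were high.

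Nascent transcription of the nearest genes moved little beyond the shift of all genes. At 24 h, 2 genes were higher and 1 was lower, while 2.49% of all genes tested were higher and 0.906% lower. Without the 2-fold limit 75 of 161 were higher (46.6%) and 15 lower (9.32%), against 32.3% and 5.59% of all genes tested. The nearest genes were picked from active genes, of which 39.3% were higher and 6.34% lower, and of the genes nearest to kept sites 42.9% and 7.56% were. The 75 include the 11 genes that reached the filter mainly or only at 24 h, a route taken by 1369 of all 13357 genes. The median of all genes was itself shifted by 0.21 on the log2 scale. After each library was centred on its median, 32 of the 161 were higher (19.9%) and 35 lower (21.7%), against 13.9% and 16.8% of all genes and 16.5% and 20.9% of active genes, and 1 and 1 passed the 2-fold limit, against 1.06% and 1.8%. The median change was 0.25 for genes nearest to lost sites, 0.24 for those nearest to kept sites and 0.21 for all genes, and in the 3 libraries at 24 h the first was 0.22, 0.30 and 0.26. Of the 161 genes 73 lay below the median of all genes.

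In 20 of the 161 genes (12.4%) all 24 h libraries lay below all DMSO libraries and in 89 (55.3%) above, against 8.52% and 41.1% of all genes tested. This was not counted for active genes or genes of kept sites. The 161 include the genes that the filter let in through the 24 h libraries. At 2 h none passed both limits, with 0.127% of all genes higher and 0.0973% lower, and 10 were higher and 4 lower at the adjusted p alone, against 1.58% and 1.97%. The latter shares were 2.01% and 2.37% for active genes and 3.98% and 2.52% for genes of kept sites. At 6 h 1 gene was higher and 0 were lower, against 0.374% and 0.195%. At the adjusted p alone 23 were higher and 1 lower (14.3% and 0.621%), against 7.82% and 1.27%. Genes of kept sites had 15.6% and 0.885%, and active genes 9.75% and 1.51%. The gene past both limits at 6 h was Zfp423, a zinc finger transcription factor with a lost site 462 bp from its start, which had 0.806, 0.699 and 0.623 FPKM in DMSO, 2.11, 2.07 and 1.75 at 6 h and 1.25, 1.03 and 1.06 at 24 h.

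Genes at and away from lost sites were also counted apart. Of all genes 32.3% were higher and 5.59% lower. The closer comparison is with active genes, at 39.3% and 6.34%, and genes of kept sites, at 42.9% and 7.56%. Genes whose start lay within 1 kb of a lost site had a median nascent change of 0.22 at 24 h (28 higher and 5 lower of 63 tested at the adjusted p alone), and those of farther sites had 0.27 (48 higher and 10 lower of 99). The 97 tested genes that were not also nearest to a kept site had a median of 0.22, with 41 higher and 6 lower and none past 2-fold. For the 20 sites with H3K27ac in all 3 DMSO and no dTAG-13 library among the highest peaks, 10 nearest genes could be tested, of which 3 were higher and 1 lower, with a median of 0.10. After centring 1 was higher and 4 were lower, with a median of -0.14. The centred shares were 13.9% higher and 16.8% lower for all genes. They were 16.5% and 20.9% for active genes, and 21.3% and 21.1% for genes of kept sites. In RNA-seq 7 of these 20 genes were higher and 7 lower at the adjusted p alone, with a median of 0.01. There 42.9% of all genes were higher and 25% lower, and 41.2% and 31.1% of active genes. Differences between these subsets were not tested.

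**Figure D4:**
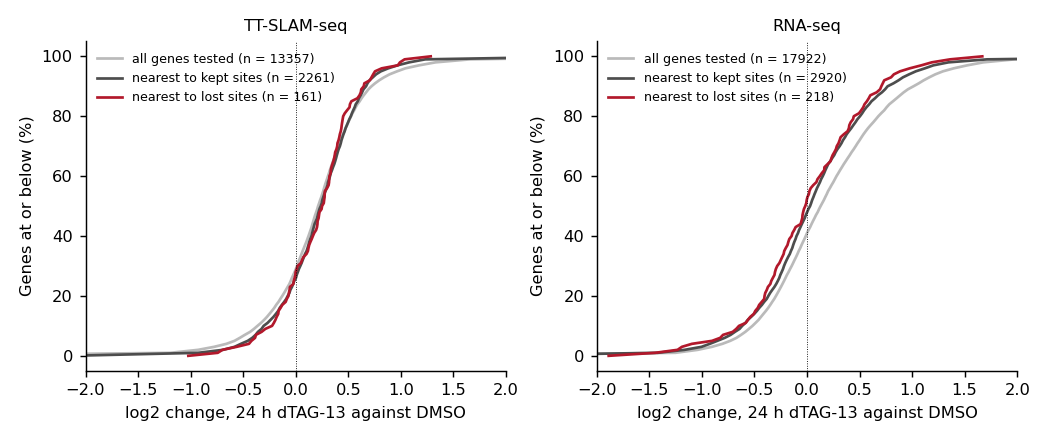
Cumulative share of genes (y axis, %) by log2 change at 24 h of dTAG-13 against DMSO (x axis) in TT-SLAM-seq (left) and RNA-seq (right), for genes nearest to lost sites (red), nearest to kept sites (dark) and all genes tested (light), drawn from percentiles and shown from -2 to 2. In TT-SLAM-seq the medians are 0.25, 0.24 and 0.21, and in RNA-seq they are -0.02, 0.03 and 0.13.

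Klf4, a transcription factor of naive pluripotency, was the gene that fell. It had 3.3, 3.16 and 1.63 FPKM in DMSO and 0.952, 0.943 and 1.19 FPKM at 24 h, so all treated libraries were below the lowest control. The change was -1.02 ± 0.22 (log2, SE, adjusted p = 0.0047, limma), resting on 128, 212 and 99 reads in DMSO and 123, 103 and 41 at 24 h. DMSO replicate 3 stood apart, and without it the change was -1.29. Without DMSO replicate 1, DMSO replicate 2, 24 h replicate 1 or 24 h replicate 2 it lay between -0.99 and -0.87, inside the 2-fold limit, and each adjusted p stayed under 0.05. At 2 h its change was 0.20 (adjusted p = 0.65). In RNA-seq Klf4 went from 43.0, 45.5 and 43.9 TPM to 11.8, 11.7 and 11.1 TPM, which is -1.89 ± 0.04 (SE, adjusted p = 2.4e-12). The gene was also the nearest active gene of 4 kept MED23 sites.

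Unc5b and Ssbp3 rose, and both were also nearest to a kept MED23 site. Unc5b, which encodes a netrin receptor, had 0.819, 0.785 and 0.628 FPKM in DMSO and 2.91, 2.39 and 2.30 FPKM at 24 h (1.28 ± 0.08 on the log2 scale, SE, adjusted p = 2.0e-05, limma). Its lost site spanned its own start, with the summit 152 bp away. Ssbp3, which encodes a cofactor of LIM-domain transcription complexes, had 1.80, 1.55 and 1.61 FPKM in DMSO and 4.53, 4.24 and 3.59 FPKM at 24 h (1.10 ± 0.09, adjusted p = 5.0e-05). The lost site of Ssbp3 lay farther than 50 kb from its start. Both genes were already higher at 2 h, by 0.59 (adjusted p = 0.011) and 0.70 (adjusted p = 0.0091). In RNA-seq at 24 h Unc5b changed by 0.59 (adjusted p = 1.9e-07), and Ssbp3 had a value of 0.00 (adjusted p = 0.97). After centring the nascent changes were 1.04 and 0.86.

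**Figure D5:**
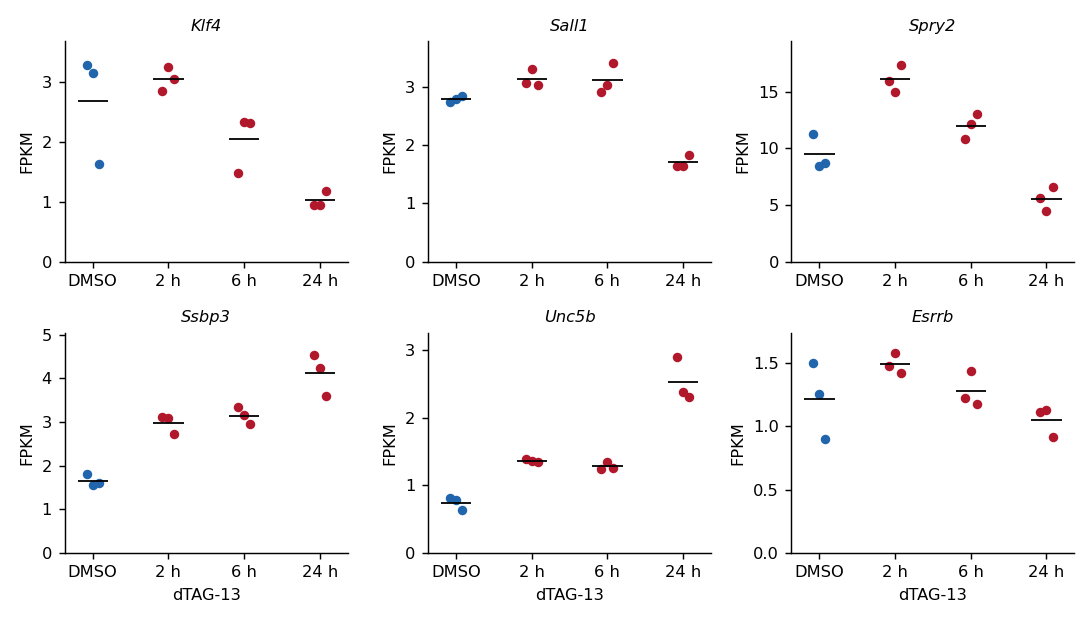
TT-SLAM-seq level (y axes, FPKM) of 6 genes nearest to lost MED23 sites in DMSO (blue) and after 2, 6 and 24 h of dTAG-13 (red), 1 point per library, lines at means. Klf4, Sall1 and Spry2 have all 24 h points below DMSO, Ssbp3 and Unc5b have all above, and the Esrrb points overlap.

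Among the pluripotency factors nearest to lost sites, Sall1 fell at 24 h without reaching 2-fold. It had 2.75, 2.80 and 2.84 FPKM in DMSO and 1.64, 1.64 and 1.82 FPKM at 24 h (-0.58 ± 0.07, SE, adjusted p = 0.00024, limma), with its lost site 448375 bp away. Esrrb, which encodes an orphan nuclear receptor of the naive network, had 1.50, 1.25 and 0.897 FPKM in DMSO and 1.12, 1.13 and 0.913 FPKM at 24 h, which overlapped (-0.13 ± 0.12, adjusted p = 0.43). Its RNA-seq level went from 110, 106 and 108 TPM to 69.6, 71.7 and 65.3 TPM (-0.65 ± 0.07, adjusted p = 1.3e-06). Tbx3, a T-box factor, had 3.07, 2.44 and 1.75 FPKM in DMSO and 1.81, 1.88 and 1.75 FPKM at 24 h (-0.32 ± 0.14, adjusted p = 0.11), and -0.06 (adjusted p = 0.55) in RNA-seq. Centring each library gave -0.37 (adjusted p = 0.046) for Esrrb and -0.56 (adjusted p = 0.015) for Tbx3 in TT-SLAM-seq. Prdm14, a repressor of differentiation genes, was below the TT-SLAM-seq filter, with 18, 40 and 27 reads in DMSO and 39, 34 and 7 at 24 h. Its RNA-seq level went from 3.65, 4.19 and 3.89 TPM to 1.78, 2.41 and 2.44 TPM (-0.71 ± 0.11, adjusted p = 4.9e-05).

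On a list of 20 pluripotency genes, of which Klf4, Tbx3, Esrrb, Sall1 and Prdm14 are nearest to lost sites, 9 of 19 tested fell and none rose in TT-SLAM-seq at 24 h at the adjusted p alone, with a median of -0.32, while 5.59% of all genes were lower and 32.3% higher. In RNA-seq 16 of 20 fell and 1 rose, with a median of -0.75 against 0.13 for all genes, of which 25% were lower and 42.9% higher. On a list of 12 formative pluripotency genes 2 rose and 4 fell of 9 tested in TT-SLAM-seq, and on a list of 16 FGF-ERK and LIF signalling genes 4 rose and 3 fell of 16, to be read against the same shares of all genes in TT-SLAM-seq.

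Spry2, a feedback inhibitor of FGF-ERK signalling, had 11.3, 8.49 and 8.69 FPKM in DMSO and 5.61, 4.49 and 6.55 FPKM at 24 h (-0.73 ± 0.15, adjusted p = 0.0044, limma). At 2 h it was higher than in DMSO by 0.74 (adjusted p = 0.033). Dnmt3a, a de novo DNA methyltransferase gene on the formative list, changed by 0.31 (adjusted p = 0.017) in TT-SLAM-seq and by -0.83 (adjusted p = 0.009) in RNA-seq, and the first was 0.07 (adjusted p = 0.61) after centring. Of the 32 genes of Mediator, 31 were tested in TT-SLAM-seq, 9 rose and 1 fell at the adjusted p alone, a share of risers below the 32.3% of all genes, and none changed more than 2-fold. Med23 itself was 0.919, 0.981 and 1.04 FPKM in DMSO and 1.25, 1.64 and 1.26 FPKM at 24 h (0.35 ± 0.11, adjusted p = 0.036), a call that was lost after centring (0.10, adjusted p = 0.47).

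Of the genes nearest to the 10 strongest lost sites, with Aldh4a1 set aside, St5 and Clic4 were called higher in TT-SLAM-seq at the adjusted p. In RNA-seq genes moved both ways. Aldh4a1 had 0.409, 0.355 and 0.239 FPKM in DMSO and 0.791, 0.696 and 0.926 FPKM at 24 h, which did not overlap, but it passed the filter through the 24 h libraries alone and its test is not given. Tnfrsf19 had 0.619, 0.557 and 0.503 FPKM in DMSO and 0.575, 0.541 and 0.558 FPKM at 24 h, which overlapped. St5 and Clic4 rose by 0.43 (adjusted p = 0.0018) and 0.38 (adjusted p = 0.020), and neither call was kept after centring. Mdm1, Efr3b, Gm5837 and Tmem181a were below the filter, and Gpx4-ps2 rested on at most 9 reads in any of these libraries. In RNA-seq Mdm1 rose by 0.68 (adjusted p = 1.2e-07) and Efr3b by 0.96 (adjusted p = 8.3e-08), the latter from 3.74, 3.75 and 3.83 TPM to 8.43, 7.80 and 7.30 TPM. Gm5837 fell by 0.66 (adjusted p = 7.0e-07) and Clic4 by 0.27 (adjusted p = 1.8e-06) in RNA-seq, Clic4 thus in the direction opposite to that in TT-SLAM-seq.

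The 8 genes nearest to 2 lost sites, the most that any gene had, were Bcor, Cdv3-ps, Frat2, Gm26916, Gm3383, Gm8319, Mdm1 and Tnfrsf19. Bcor, a Polycomb-associated corepressor gene, rose in TT-SLAM-seq by 0.33 (adjusted p = 0.0029, limma), a call that was lost after centring (0.09). Frat2, a gene of the Wnt pathway, passed the TT-SLAM-seq filter through the 24 h libraries alone, with 6, 13 and 11 reads in DMSO and 33, 39 and 11 at 24 h. In RNA-seq Frat2 had 4.74, 5.97 and 5.04 TPM in DMSO and 7.65, 7.37 and 6.05 TPM at 24 h (0.39, adjusted p = 0.0082). Gm8319, a processed pseudogene, was listed at 0 FPKM in these TT-SLAM-seq libraries. Cdv3-ps, Gm26916 and Gm3383 had at most 3 reads in any DMSO or 24 h library. Their lost sites lay on chromosome 14. They are a processed pseudogene, a long non-coding RNA and a gene with close relatives, for which assignment of reads is uncertain. In RNA-seq Gm26916 had 15.9, 0.519 and 20.0 TPM at 24 h, and without the low library its change was 0.96 (adjusted p = 0.52) in place of -0.43.

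The median change of steady-state RNA was lower for the nearest genes than for all genes, and it was also lower for active genes in general, from which they were picked. In RNA-seq at 24 h (limma on log2(TPM + 0.5), 17922 genes) 8 of 218 were higher and 10 lower by more than 2-fold, while 10.1% of all genes were higher and 2.01% lower, and 827 and 282 of the 13184 active genes tested. At the adjusted p alone 86 were higher (39.4%) and 85 lower (39.0%), against 42.9% and 25% of all genes and 41.2% and 31.1% of active genes. The median was -0.02, against 0.03 for genes of kept sites, 0.06 for active genes and 0.13 for all genes. Differences between these sets were not tested. After centring 3 were higher and 17 lower by more than 2-fold, against 4.94% and 5.13% of all genes, and 67 and 209 of 2920 genes of kept sites. At the adjusted p alone 45 and 125 were (20.6% and 57.3%), against 25.9% and 44.1% of all genes. Genes of kept sites had 21.7% and 57.4%, and active genes 23.3% and 53.1%. The lowest-depth RNA-seq library, at 0.239 of the deepest, was 24 h replicate 1, and without it the counts were 9 and 10.

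The genes that fell more than 2-fold in RNA-seq were Klf4, Sall1, Spry2, Dusp27, Cobl, Slc6a9, Mylpf, Wt1, D16Ertd472e and Zfp423. Dusp27, next to a lost SE site 2576 bp away that had H3K27ac in all 3 DMSO and no dTAG-13 library at either number of peaks, went from 5.03, 4.37 and 5.06 TPM to 1.09, 1.45 and 1.42 TPM (-1.55, adjusted p = 1.2e-08, limma). Cobl, an actin nucleator gene, went from 25.6, 28.3 and 26.5 TPM to 12.7, 12.6 and 11.7 TPM (-1.09). Wt1, a zinc finger transcription factor gene, went from 28.1, 28.4 and 28.1 TPM to 10.4, 12.8 and 11.9 TPM (-1.24). Zfp423 was lower in RNA-seq (-1.11) and higher in TT-SLAM-seq (0.42, adjusted p = 0.003). Those that rose were Adcy6, Sema3f, Mir196a-1, Atp1b2, Tmem181b-ps, Baiap2l1, Gstt2 and Ppip5k1. Adcy6, which encodes an adenylate cyclase, went from 5.70, 4.78 and 4.75 TPM to 17.2, 17.5 and 16.8 TPM (1.67).

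The 17 genes nearest to SE sites stood lower in RNA-seq at 24 h. At 24 h 13 of 17 were lower and 4 higher at the adjusted p alone, with a median of -0.38, while 25% of all genes were lower and 42.9% higher, and the 201 genes of other lost sites had a median of -0.00 with 72 lower and 82 higher. Among 157 genes nearest to kept SE sites, 80 were lower and 45 higher, with a median of -0.14. Only 9 of the 17 had no kept site, so the 17 and the 157 can share genes. At 96 h 8 of the 17 were lower and 6 higher, with a median of -0.19. Of the 157, 102 were then lower and 43 higher, with a median of -0.66, and of all genes 37.4% and 42.9%. In NPCs all 17 SE genes were lower than in mESCs at the adjusted p alone, while 38.4% of all genes were lower, and 107 of the 157 genes of kept SE sites were lower. In TT-SLAM-seq at 24 h 2 of the 13 tested were lower and 6 higher, against 5.59% and 32.3% of all genes. The SE list was drawn up for mESCs, and a difference between both kinds of SE genes was not tested.

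The spread of the nearest genes' changes in RNA-seq, from the lower to the upper quartile, was -0.15 to 0.07 after 2 h of dTAG-13 and -0.19 to 0.11 after 6 h, narrower than the -0.34 to 0.39 of 24 h. After 96 h it was -0.66 to 0.66. At 2 h 0 of 218 were higher and 1 was lower by more than 2-fold, against 0.251% and 0.123% of all genes. At the adjusted p alone 19 were higher and 32 lower (8.72% and 14.7%), against 8.25% and 7.02%. Active genes had 10.0% and 8.78%, and genes of kept sites 10.5% and 10.8%. At 6 h the counts were 0 and 2, against 0.776% and 0.19%, and 31 and 66 (14.2% and 30.3%), against 18.4% and 15.5%. Active genes had 19.1% and 20.2% at the adjusted p alone, and genes of kept sites 15.4% and 25.9%. At 96 h 41 were higher and 32 lower by more than 2-fold, against 20.3% and 12.4%, and 82 and 101 at the adjusted p alone, against 42.9% and 37.4%. By the latter measure active genes had 42.8% and 42.3% at 96 h, and genes of kept sites 42.1% and 45.4%. Klf4 then had 11.2, 10.6 and 11.0 TPM, Esrrb 6.48, 6.91 and 7.14 TPM and Sall1 8.74, 8.69 and 8.42 TPM. The feeder marker sum was 265 to 289 TPM and the mESC marker sum 177 to 205 TPM at 96 h, and their part in these values was not tested. In NPCs 34 were higher and 53 lower by more than 2-fold than in mESCs, against 26.5% and 20.1%, and 102 and 90 at the adjusted p alone, against 50.2% and 38.4%. There active genes had 45.9% and 43.0%, and genes of kept sites 43.8% and 46.9%.

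In the shERV line, dTAG-13 for 24 h gave 2 higher and 8 lower of 215 genes tested by more than 2-fold, against 2.38% and 1.44% of all genes tested. dTAG-13 with doxycycline against dTAG-13 gave 8 higher and 2 lower, against 1.49% and 1.96%. At the adjusted p alone the first gave 76 higher and 38 lower, against 41.2% and 12.8%, and the second 53 and 61, against 17.5% and 29.3%. Genes of kept sites had 43.3% and 16.4% in the first and 22.1% and 32.5% in the second. Active genes had 43.0% and 13.1%, and 18.5% and 29.5%. Both contrasts share the dTAG-13 libraries, and doxycycline before treatment is given for all 3 groups. Klf4 had 23.1, 23.9 and 25.5 TPM in DMSO, 5.99, 6.11 and 6.11 TPM with dTAG-13, and 25.6, 24.6 and 24.8 TPM with doxycycline added. Esrrb had 51.9, 55.2 and 63.1 TPM, 19.6, 22.1 and 19.5 TPM, and 59.8, 67.0 and 67.5 TPM in the same order. For Prdm14 the changes were -1.83 and 1.91, and for Tbx3 they were -1.27 and 1.34 on the log2 scale, each past the adjusted p threshold in limma.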

How the data were processed

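ChIP-seq peaks were used as the authors deposited them. Per the labels and the study's methods, reads were trimmed with cutadapt 2.4, aligned with BWA to mm10, filtered with SAMtools and GATK 4.1.4.1, and peaks were called per library with MACS2 against input. In the deposited peak files fold enrichment is a ratio to the local background, beside the caller's −log10 p and q values. No deposited coverage signal was used for the values reported here beyond the peak lists, although the RNA-seq tables also hold a per-gene coverage, from which relative depth was read. Drosophila spike-in was described for the histone and RNAPII ChIP-seq and does not enter the peak files. ChIP read depth is not given in the sources used here. RNA-seq was aligned with STAR 2.7.5a, and the authors made FPKM and TPM with StringTie 2.0.6. For TT-SLAM-seq the authors deposited FPKM of reads with T-to-C conversions. On low values they are whole multiples of 1 read per gene span, introns included (100% within 0.1 of a whole number), which gave 6481999 (24 h replicate 3) to 24266191 (24 h replicate 1) reads per library. No count test was run.

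Sites were compared by overlap of at least 1 bp. Marks were compared at equal peak numbers per library (the highest by fold enrichment), with a two-sided exact permutation test of library shares. Kept sites in the enrichment range had a mean DMSO enrichment between the lowest value and the upper quartile of the lost sites. Gene coordinates came from the deposited RNA-seq tables (GRCm38). Expression was tested with limma 3.58.1 in R 4.3.3 on log2(value + 0.5), with at least 0.5 FPKM or 1 TPM in at least 3 libraries, Benjamini-Hochberg adjustment and, where stated, a change of more than 2-fold; TT-SLAM-seq and RNA-seq time courses were each fitted with all their times. Scripts used Python 3.11.15, numpy 2.4.6, pandas 2.3.3, pyfaidx 0.9.0.4 and matplotlib 3.10.9 and were tested on simulated data. Named genes were the nearest active genes of the 10 sites with the highest mean enrichment and those called in TT-SLAM-seq at 24 h. Added to these were those on the pluripotency, formative or FGF-ERK and LIF lists, those with most lost sites, and Med23 and Trim28. All 8 genes tied at 2 lost sites are given. Genes called in RNA-seq, Zfp423 at 6 h and genes named at gene starts were chosen after their values were seen. The sites, lists and rules were chosen with earlier results of these data known. Alternatives covered the number of top peaks, overlap, pseudocount, filter, centring, gene assignment, a replicate block and leaving out each library. Hi-C, single-cell and parental RNA-seq data and the authors' lists of IAP elements and enhancer constituents were not used here.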

Additional observations from a re-analysis of the deposited data

Results flagged for a closer look

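H3K9me3 at MED23 sites was picked out because lost and kept sites moved in opposite directions. Lost sites went from 0.442% in each DMSO library to 2.65%, 3.10% and 2.65% in dTAG-13, and kept sites from 1.93%, 2.99% and 2.46% to 0.939%, 1.42% and 1.09%. The difference between the changes was 3.67 percentage points (exact permutation test p = 0.1, the smallest that 3 against 3 libraries can give). Against matched kept sites it was 3.86 points, and with all deposited peaks it was 6.36 points, there with lost sites changing by 0.147 and kept sites by -6.21 points. The count behind the lost sites was 1 site per DMSO library and 6, 7 and 6 sites in dTAG-13. No group had more than 3 libraries, so single libraries far from the rest of their group were not looked for.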

How the results depend on the processing

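The number of lost sites depended on the peaks compared: 22 with the top 2500, 1542 with the top 10000, and 277 to 369 without 1 MED23 library (349 without DMSO replicate 1, 369 without DMSO replicate 2, 342 without dTAG-13 replicate 1). The H3K27ac, RNAPII and H3K9me3 changes at lost sites kept their direction under every alternative run, with -30.8 to -19.3, -5.56 to -3.72 and 1.17 to 2.43 points when 1 library was left out. Lost minus kept the ranges were -18.3 to -9.39 for H3K27ac (-9.39 without dTAG-13 replicate 3), -4.33 to -2.20 for RNAPII (-2.20 without MED23 DMSO replicate 1) and 2.54 to 6.12 for H3K9me3 (6.12 without its dTAG-13 replicate 1). With all deposited peaks RNAPII changed by -16.8 points at lost sites and by -0.638 lost minus kept. H3K9me3 at lost sites changed by 1.17 points without MED23 DMSO replicate 2.

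Counts of nearest genes past 2-fold in TT-SLAM-seq at 24 h were small. Settings that change the MED23 sites also change the number of nearest genes. Leaving out 1 MED23 library, for example, gave 277 to 369 sites in place of 226. The counts below are not shares, and the shares of all genes under each setting are not set beside them. A larger count is therefore not by itself a stronger change. With the top 2500 peaks 0 were higher and 0 lower, and with the top 10000 16 and 5. A pseudocount of 0.1 gave 14 and 2 and of 1 gave 1 and 0. A mean of at least 5 FPKM left 11 genes, with 0 and 0. Centring gave 1 higher, the nearest gene of any kind 5 and 2, and sites within 50 kb 1 and 0. Leaving out 1 library gave 2 to 5 higher and 0 to 3 lower: higher, 5 without MED23 DMSO replicate 2 and 4 without DMSO replicate 1 or 24 h replicate 2; lower, 0 without DMSO replicate 1, DMSO replicate 2, 24 h replicate 1 or 24 h replicate 2, 2 without DMSO replicate 3, MED23 DMSO replicate 2 or MED23 dTAG-13 replicate 1, and 3 without MED23 dTAG-13 replicate 2. At the adjusted p alone 46 to 122 were higher and 9 to 26 lower, with 122, 114 and 113 higher without MED23 DMSO replicate 1, DMSO replicate 2 or dTAG-13 replicate 1 (23, 26 and 21 lower) and 46 higher and 9 lower without 24 h replicate 2 (9 lower also without DMSO replicate 1). The median change was 0.16 with the top 2500, 0.32 and 0.19 with pseudocounts of 0.1 and 1, 0.21 with no filter, -0.19 at a mean of at least 5, 0.0071 after centring and 0.21 to 0.26 without 1 library. In RNA-seq at 24 h the counts were 1 and 1 with the top 2500, 63 and 49 with the top 10000, 3 and 17 after centring, and 8 to 13 and 10 to 15 without 1 library (13 higher without MED23 DMSO replicate 2 or dTAG-13 replicate 1). Centring turned Aldh4a1 and Med23 in RNA-seq to -0.052 and -0.046. The cause was not tested.

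With the replicate number as a block TT-SLAM-seq gave 2 higher and 1 lower past 2-fold and 72 and 14 at the adjusted p alone, and RNA-seq 8 and 10, and 84 and 83. The ChIP differences were as above with a sign-flip p of 0.25 for 3 pairs and 0.5 for 2, the smallest these can give. DMSO and 24 h libraries with the same number did not deviate together (correlations of -0.053 to 0.018 in TT-SLAM-seq and -0.058 to 0.062 in RNA-seq). Of these, 1 RNA-seq and 0 TT-SLAM-seq libraries correlated best with their own number. The numbers thus showed no pairing in these 2 assays, and pairing of the ChIP libraries was not examined. Values at single sites in ChIP-seq are limited by the unknown read depth, and changes of genes with few reads by the depth of 24 h replicate 3 (6481999 reads).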

Other observations

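The 167 shared MED23 sites with a peak in 1 dTAG-13 library stand between lost and kept sites in MED23 by definition. In H3K27ac they were close to lost sites. Of these, 116 had a peak in replicate 1 and 51 in replicate 2. Their dTAG-13 enrichment, where present, had medians of 3.46 and 3.82. The mean share with H3K27ac was 59.3% in DMSO and 39.1% in dTAG-13 (-20.2 points, exact permutation test p = 0.1), that with RNAPII was 28.1% and 22.8%, and that with H3K9me3 was 0.200% and 0.998%.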
